A study of Homo sapiens with 4 samples.

Results

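Heat shock proteins are chaperones, which help other proteins fold or keep them from aggregating. The 10 genes described here encode the main ones outside the endoplasmic reticulum (ER). They were taken as the rows whose gene symbol was HSPA4, HSPA8, HSPH1, HSP90AA1, HSP90AB1, DNAJA1, DNAJB1, HSPB1, HSPD1 or HSPE1, and all 10 were found among 20812 measured genes. The groups were HCT116 human colon cancer cells overexpressing human IDO1 (labelled hIDO1 overexpressing, here the IDO1 line) and wild type HCT116 cells, each given 1 mM indole or the solvent DMF for 24 h. IDO1 is the enzyme that opens the ring of tryptophan, and indole is a bacterial product of tryptophan. How the IDO1 line was made, and whether it is 1 clone, was not given in the sources used here. Messenger RNA was read as amplicons, 1 short PCR target per gene, and each group was 1 library.

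With 1 library per group there was no test between groups. Each ratio is given with a 95% interval of counting error, which compares 2 libraries and not 2 conditions. Levels are reads per 1000000 reads (CPM) scaled by TMM, a factor computed over all genes. Because targets amplify unequally, a gene is compared with itself across libraries and not with other genes. Library totals ranged from 18283862 to 22736172 reads. IDO1 had 2440 and 3451 reads in the IDO1 line with indole and with DMF, and 2 and 0 reads in wild type with indole and with DMF. The 5 epithelial markers summed to between 3517 and 4844 CPM. The leukocyte markers PTPRC and CD3E and the endothelial marker CDH5 had 0 reads in all 4 libraries. The remaining leukocyte marker, CD14, had between 7 and 18 reads, and the remaining endothelial marker, PECAM1, between 72 and 104 reads. The 3 fibroblast markers, led by COL1A1, summed to 74.2 and 76.9 CPM in the IDO1 line with indole and with DMF and to 98.3 and 86.0 CPM in wild type with indole and with DMF, and their part in the results was not tested. These sums were almost wholly COL1A1, since COL3A1 had between 2 and 23 reads and PDGFRA between 0 and 6. In bulk RNA, fewer cells of a kind and less RNA per cell cannot be told apart.

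The cytosolic system is built around HSP70 and HSP90, which are ATP-driven. HSPA8 is the constitutive HSP70, DNAJA1 and DNAJB1 are J-domain proteins that deliver clients to it, and HSPA4 and HSPH1 are HSP110 proteins that exchange its nucleotide. HSP90AA1 is the more inducible and HSP90AB1 the more constitutive cytosolic HSP90, and HSPB1 is a small heat shock protein that holds unfolded proteins without ATP. In the mitochondrial matrix, HSPD1 (HSP60) forms a folding chamber and HSPE1 (HSP10) is its lid. The transcription factor HSF1 binds heat shock elements, inverted repeats of the unit nGAAn, and raises many of these genes when unfolded proteins accumulate.

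Promoter windows of 300 bases (250 before and 50 after an annotated start) were read from RefSeq on GRCh38.p14, a build other than the authors' hg19, and all 10 genes matched, with 16 windows. An element of 3 units in a row, GAANNTTCNNGAA or TTCNNGAANNTTC, was searched on both strands, overlaps allowed. It was found in windows of 5 of the 10 genes, against 0.608% of 27305 genes in the table, or in 5 of 16 windows against 0.490% of 35116. The 10 genes were picked as HSF1-driven and constitutive chaperones. A share above that of all genes was thus largely set by the choice. The elements are shown, in capitals with their flanks and 5′ to 3′ on the gene's strand, because the genes that hold them varied to different extents across the libraries.
HSPD1, minus strand, chr2:197500062-197500090: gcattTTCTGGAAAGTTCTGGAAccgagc
HSP90AB1, plus strand, chr6:44247772-44247796: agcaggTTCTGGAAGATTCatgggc
HSP90AB1, plus strand, chr6:44247825-44247849: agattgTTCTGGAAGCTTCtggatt
HSP90AA1, minus strand, chr14:102087114-102087138: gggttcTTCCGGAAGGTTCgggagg
HSPA8, minus strand, chr11:123062348-123062372: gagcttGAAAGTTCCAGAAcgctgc
HSPA8, minus strand, chr11:123062173-123062197: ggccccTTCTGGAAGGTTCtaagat
DNAJA1, plus strand, chr9:33025270-33025294: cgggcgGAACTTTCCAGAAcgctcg

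The element of HSPD1 is an 18-base run in which 2 matches overlap, and it lies 189 bases into HSPD1 counted from the upstream annotated start. The elements of HSP90AB1 and HSP90AA1 were likewise only in the window of the most downstream annotated start, past the upstream ones. The shorter form of 2 units, GAANNTTC or TTCNNGAA, was in windows of 7 of the 10 genes, adding DNAJB1 and HSPB1, against 16.2% of all genes. Here too the choice of genes largely set the share. For HSPA4, HSPH1 and HSPE1 neither form was in the windows read. A match is a description of letters and not a measured binding site.

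HSPD1 and HSPE1 are neighbours on chromosome 2 that are read in opposite directions, with 104 bases between their starts. This stretch is shown because the levels of both genes, described below, stayed in a narrow ratio. That was not particular to neighbours. The pair ranked 4 of 45 from the narrowest, and HSP90AB1, on chromosome 6, kept a narrower ratio with each of the 2 genes. Whether the stretch bears on the ratio was not tested. It is given on the strand of HSPE1, with CG dinucleotides in capitals. It holds 13 of them and is 74.0% G and C, and neither form of the element is in it.
HSPD1 to HSPE1, chr2:197500275-197500378: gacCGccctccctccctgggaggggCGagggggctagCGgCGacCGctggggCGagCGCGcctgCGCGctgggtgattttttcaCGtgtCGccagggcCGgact

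The library of wild type with indole differed most from the rest. Of the genes compared (at least 10 CPM in 1 of the 2 libraries), 1459 of 8679 were at least 1.5-fold apart between indole and DMF in wild type, against 61 of 8523 in the IDO1 line. Between the lines the number was 1872 of 8765 in indole and 183 of 8500 in DMF. The direction of those differences depends on the scaling: with indole in wild type 615 genes were higher and 844 lower, but 1235 and 425 with library totals. Between the lines 1017 were higher and 855 lower in indole, but 780 and 1106 with totals, and 76 were higher and 107 lower in DMF, but 139 and 63 with totals. Every statement on wild type with indole rests on 1 library that stood apart. Of the 10 heat shock genes, 9 had their lowest level in it, against 42.8% of 8845 genes with at least 10 CPM in any library. Scaled by library totals the number was 6 of 10, and the share of all genes was not computed under that scaling. HSPB1 counts among the 9 with 950 CPM, beside 954 CPM in the IDO1 line with indole.

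**Figure D1:**
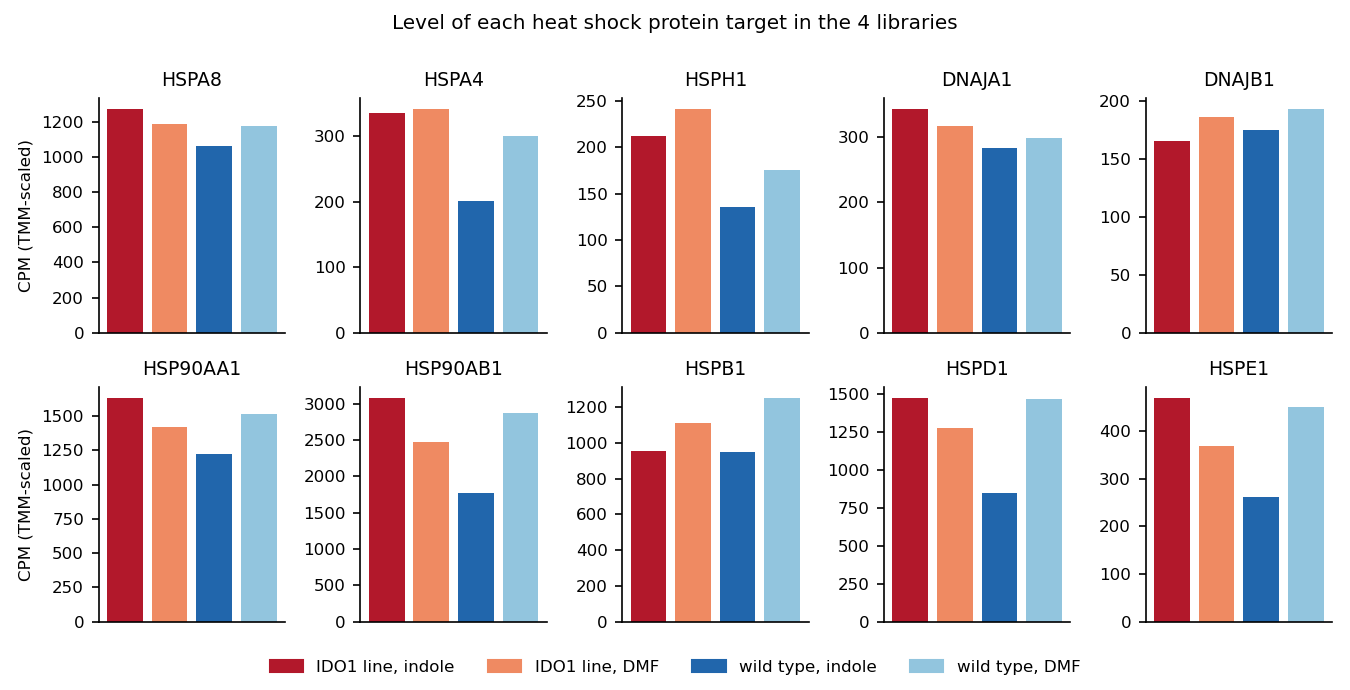
TMM-scaled CPM (vertical axes, each from 0) for the 10 heat shock genes, with 1 bar per library in the order IDO1 line with indole, IDO1 line with DMF, wild type with indole and wild type with DMF. There are no error bars because each group is 1 library. HSP90AB1, HSPD1 and HSPE1 are lowest in wild type with indole and highest in the IDO1 line with indole. HSPD1 is nearly level between the IDO1 line with indole (1474 CPM) and wild type with DMF (1473 CPM).

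The mitochondrial chaperonin genes had the lowest ratios of indole to DMF among the 10 in wild type. HSPD1 had 1474 and 1278 CPM in the IDO1 line with indole and with DMF, and 848 and 1473 CPM in wild type with indole and with DMF. HSPE1 had 469 and 369 CPM in the IDO1 line with indole and with DMF, and 262 and 452 CPM in wild type with indole and with DMF. For both genes 1 library, wild type with indole, was the lowest, and the IDO1 line with DMF came next. In wild type, indole was lower than DMF by 1.74-fold for HSPD1 (1.70 to 1.77) and by 1.72-fold for HSPE1 (1.67 to 1.78). The direction was the other way in the IDO1 line, with HSPD1 1.15-fold higher with indole (1.13 to 1.17) and HSPE1 1.27-fold higher (1.23 to 1.31). Of all genes compared in wild type, 4.15% had a lower log2 ratio than HSPD1 and 4.29% a lower one than HSPE1.

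Within each library, the lid and the chamber kept nearly the same proportion, a quantity that no scaling affects. HSPE1 had 0.318 reads per read of HSPD1 in the IDO1 line with indole (0.311 to 0.326) and 0.289 with DMF (0.282 to 0.296). In wild type it had 0.309 with indole (0.299 to 0.319) and 0.307 with DMF (0.300 to 0.314). In wild type the intervals of both treatments overlap, although the level of each gene differed between them. They do not overlap in the IDO1 line, and the proportion was slightly higher with indole. GENCODE 29 annotates 17 pseudogenes of HSPD1, 26 of HSPE1 and 17 of HSPA8, and between 1 and 6 of each other heat shock gene here except HSPA4 and HSPH1, so some reads may come from copies and the values of those genes are uncertain to that extent.

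The cytosolic HSP90 genes varied in the same order but not to the same extent. HSP90AB1 had 3075 and 2473 CPM in the IDO1 line with indole and with DMF, and 1775 and 2872 CPM in wild type with indole and with DMF. HSP90AA1 had 1629 and 1419 CPM in the IDO1 line with indole and with DMF, and 1222 and 1515 CPM in wild type with indole and with DMF. Both were lowest in wild type with indole and highest in the IDO1 line with indole, but the constitutive gene had the wider span. In wild type, indole was lower by 1.62-fold for HSP90AB1 (1.60 to 1.64) and by 1.24-fold for HSP90AA1 (1.22 to 1.26). For HSP90AA1 the log2 ratio of -0.31 became -0.02 when the trend on abundance, described below, was removed. Within the IDO1 line, indole was higher by 1.24-fold for HSP90AB1 (1.23 to 1.26) and by 1.15-fold for HSP90AA1 (1.13 to 1.17).

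The proportion of HSP90AA1 to HSP90AB1 reads therefore differed in wild type with indole. It was 0.530 in the IDO1 line with indole (0.523 to 0.537) and 0.574 with DMF (0.566 to 0.582), and in wild type it was 0.688 with indole (0.677 to 0.700) and 0.527 with DMF (0.520 to 0.535). The wild type indole value lies above the other 3 intervals. Of the 45 pairs among the 10 genes, HSP90AB1 with HSPE1 and with HSPD1 had ratios that spread over 1.07-fold and 1.08-fold across the 4 libraries, and HSPD1 with HSPE1 over 1.10-fold. Of these 45 pairs only HSPA8 with DNAJA1 spread less, over 1.06-fold, and the largest spread, 1.89-fold, was that of DNAJB1 and HSPE1. These pairs share libraries and are descriptions.

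**Figure D2:**
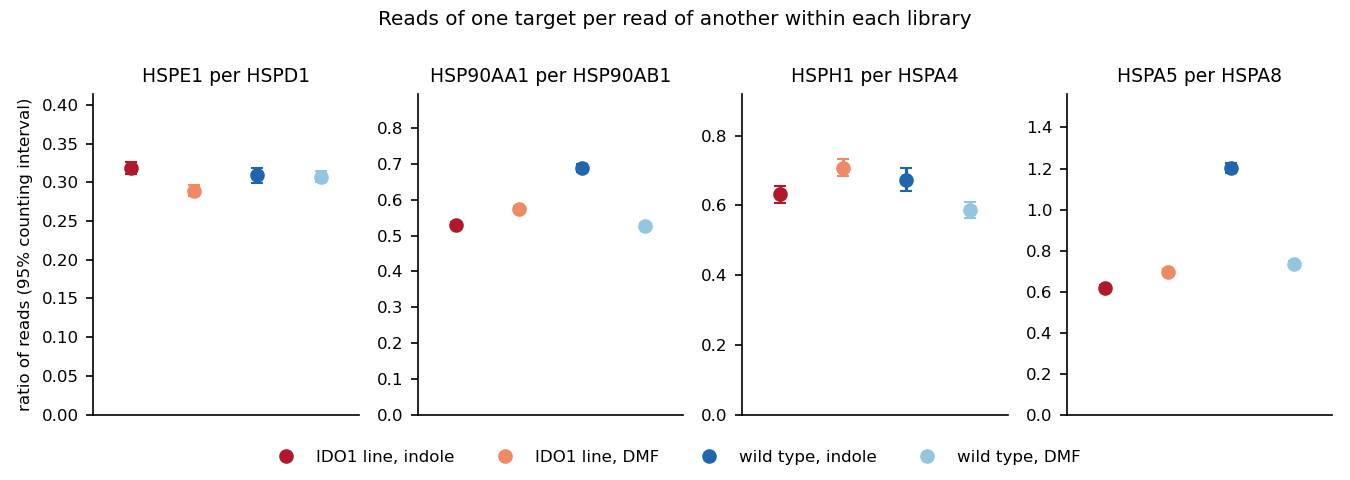
Reads of the gene named first per read of the gene named second within each of the 4 libraries (vertical axes from 0), with 95% exact counting intervals as bars. HSPE1 per HSPD1 stays between 0.289 and 0.318, while HSP90AA1 per HSP90AB1 and HSPA5 per HSPA8 are highest in wild type with indole, at 0.688 and 1.20.

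The HSP110 genes, which recharge HSP70, were lower in wild type with indole and also differed between the lines. HSPA4 had 336 and 341 CPM in the IDO1 line with indole and with DMF, and 201 and 300 CPM in wild type with indole and with DMF. HSPH1 had 212 and 241 CPM in the IDO1 line with indole and with DMF, and 135 and 176 CPM in wild type with indole and with DMF. Both were higher in each IDO1 line library than in either wild type library. Indole in wild type was lower by 1.49-fold for HSPA4 (1.43 to 1.55) and by 1.30-fold for HSPH1 (1.24 to 1.37). The ratio of indole to DMF in the IDO1 line was 0.985 for HSPA4 (0.953 to 1.02), and HSPH1 was 1.14-fold lower with indole (1.09 to 1.18).

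The core HSP70 gene and its J-domain partners varied least. HSPA8 had 1271 and 1190 CPM in the IDO1 line with indole and with DMF, and 1063 and 1178 CPM in wild type with indole and with DMF. DNAJA1 had 342 and 318 CPM in the IDO1 line with indole and with DMF, and 283 and 299 CPM in wild type with indole and with DMF. DNAJB1 had 165 and 186 CPM in the IDO1 line with indole and with DMF, and 175 and 192 CPM in wild type with indole and with DMF. The highest library was between 1.16-fold and 1.21-fold above the lowest for these 3 genes. In wild type the log2 ratio of indole to DMF was -0.15 for HSPA8, -0.08 for DNAJA1 and -0.14 for DNAJB1, and with library totals these were 0.03, 0.10 and 0.04, so their direction there depends on the scaling. With indole HSPA8 was 1.07-fold higher (1.05 to 1.09) and DNAJA1 1.08-fold higher (1.04 to 1.11) than with DMF within the IDO1 line, and DNAJB1 was 1.13-fold lower (1.08 to 1.18).

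HSPB1, the small heat shock protein, was lower with indole in both lines. It had 954 and 1111 CPM in the IDO1 line with indole and with DMF, and 950 and 1250 CPM in wild type with indole and with DMF. The indole libraries of the lines were nearly equal, with a ratio of 1.00 (0.983 to 1.02) between the IDO1 line and wild type under TMM. Indole was lower by 1.16-fold in the IDO1 line (1.14 to 1.19) and by 1.32-fold in wild type (1.29 to 1.34). The IDO1 line had 1.12-fold less HSPB1 than wild type in DMF (1.11 to 1.14).

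Over the 10 genes, the indole comparison in wild type gave a median log2 ratio of -0.39, beside -0.04 over all 8679 genes. All 10 ratios were below 0, as were 53.8% of all genes, and 3 genes (HSPD1, HSPE1 and HSP90AB1) were at least 1.5-fold lower, as were 9.72% of all genes. HSPA4, with a log2 ratio of -0.58, was just short of that fold. Abundant genes as a class were lower in this library: of the 1851 genes with a mean of at least 100 CPM, a level that all 10 heat shock genes exceed, 68.9% were below 0 and 16.7% at least 1.5-fold lower, and their median was -0.20. With the trend of the ratio on abundance removed, 7 of the 10 genes were below 0, while 50.2% of all genes were above 0, and the median of the 10 was -0.16. Then 0 of the 10 were 1.5-fold lower, against 695 of all 8679 genes, HSPE1, HSPD1 and HSP90AB1 being at -0.55, -0.51 and -0.39. With library totals, which move the median of all genes to 0.14, 7 of 10 were below 0 while 62.5% of all genes were above it. In this setting 2 of the 10 were at least 1.5-fold lower, against 425 of 8742 genes, and the median of the 10 was -0.21. Relative to the median of all genes it was -0.35 under both scalings. This likeness was fixed in advance, because a change of scaling moves every log2 ratio of a comparison by nearly the same amount.

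**Figure D3:**
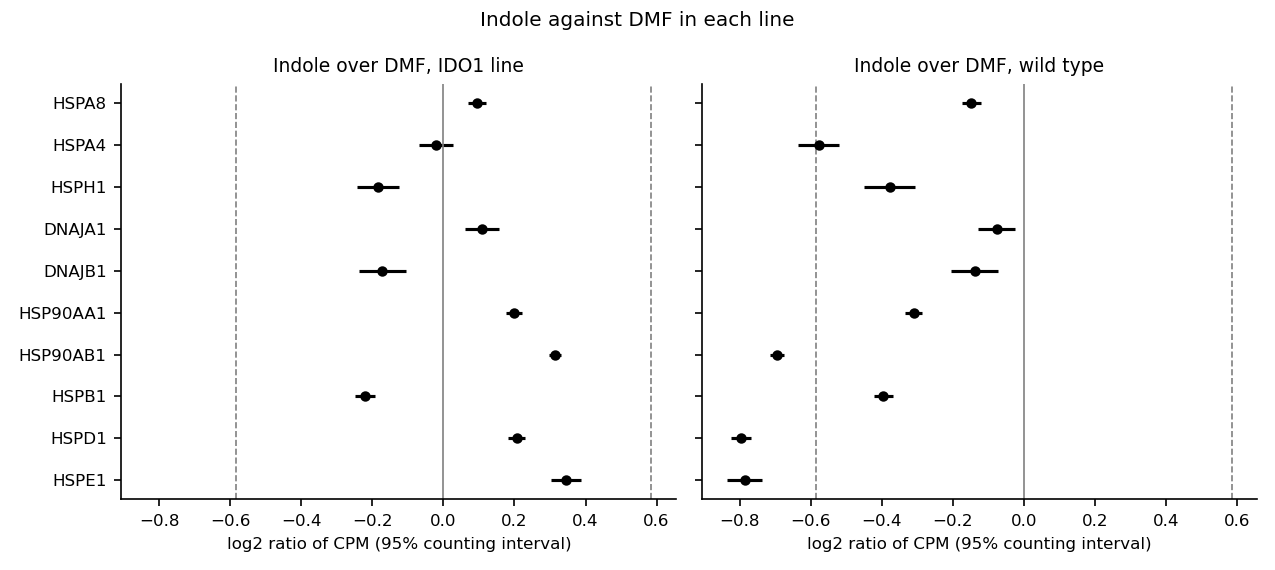
Log2 ratio of CPM with indole over DMF (horizontal axis) for the 10 heat shock genes in the IDO1 line (left) and in wild type (right), with 95% exact counting intervals; dashed lines mark 1.5-fold. The ratios lie between -0.22 and 0.34 in the IDO1 line, and in wild type HSPD1, HSPE1 and HSP90AB1 lie below the lower dashed line.

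Indole and DMF in the IDO1 line were close for all 10 genes. The median log2 ratio was 0.10, beside -0.01 over 8523 genes, with 6 genes above 0 and 4 below, against 48.8% of all genes above 0. None of the 10 was 1.5-fold apart, against 0.434% of all genes higher and 0.282% lower. HSPE1 and HSP90AB1 were the farthest upward, and 3.27% and 4.36% of all genes had a higher ratio. HSPB1 and HSPH1 were the farthest downward.

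The indole responses of the lines were then set against each other as a difference of log2 ratios, IDO1 line minus wild type. It was 1.13 for HSPE1, 1.01 for HSP90AB1 and 1.00 for HSPD1, and 1.48%, 2.52% and 2.60% of all 8845 genes had a larger difference. HSPA4 followed with 0.55 and HSP90AA1 with 0.51. For DNAJB1 the difference was -0.03. The median over the 10 genes was 0.38, and 3 were above 1.5-fold on this measure, against 12.4% of all genes. There were 6 genes lower with indole in wild type and higher with indole in the IDO1 line, against 28.1% of all genes. With library totals there were 4, against 20.3% of all genes, and with the trend on abundance removed also 4, against 27.8%. For HSP90AA1 the difference was 0.33 with totals and 0.22 with the trend removed. With 1 library per group, these differences were not tested.

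Between the lines in DMF, HSPH1 had the highest ratio of the 10. It was 1.37-fold higher in the IDO1 line (1.31 to 1.43), and 2.21% of all genes had a higher ratio. HSPA4 was 1.14-fold higher (1.10 to 1.18). HSPE1, HSP90AB1 and HSPD1 were lower in the IDO1 line by 1.22-fold (1.19 to 1.26), 1.16-fold (1.15 to 1.17) and 1.15-fold (1.13 to 1.17). None of the 10 was 1.5-fold apart, against 0.894% of all genes higher and 1.26% lower. There were 4 of 10 above 0, against 48.4% of all genes, but 6 of 10 with library totals, against 67.7%. The median log2 ratio was -0.07 beside -0.01 over 8500 genes, and with library totals it was 0.03 beside 0.09.

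Between the lines in indole, 9 of the 10 genes were above 0, against 52.8% of all genes, and 5 reached 1.5-fold, against 11.6% of all genes and 15.7% of those with a mean of at least 100 CPM. They were HSPE1, 1.79-fold (1.73 to 1.85), HSPD1, 1.74-fold (1.71 to 1.77), HSP90AB1, 1.73-fold (1.71 to 1.76), HSPA4, 1.67-fold (1.61 to 1.74), and HSPH1, 1.57-fold (1.49 to 1.65). The median log2 ratio was 0.53, beside 0.03 over 8765 genes. With the trend on abundance removed, 3 of the 10 genes were 1.5-fold higher, against 866 of all 8765 genes. This comparison shares its wild type indole library with the indole comparison in wild type. With wild type in DMF in place of wild type in indole, 0 of the 10 were 1.5-fold higher, while only 89 of all genes compared were. The median of the 10 was then 0.10, beside -0.01 over all genes.

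**Figure D4:**
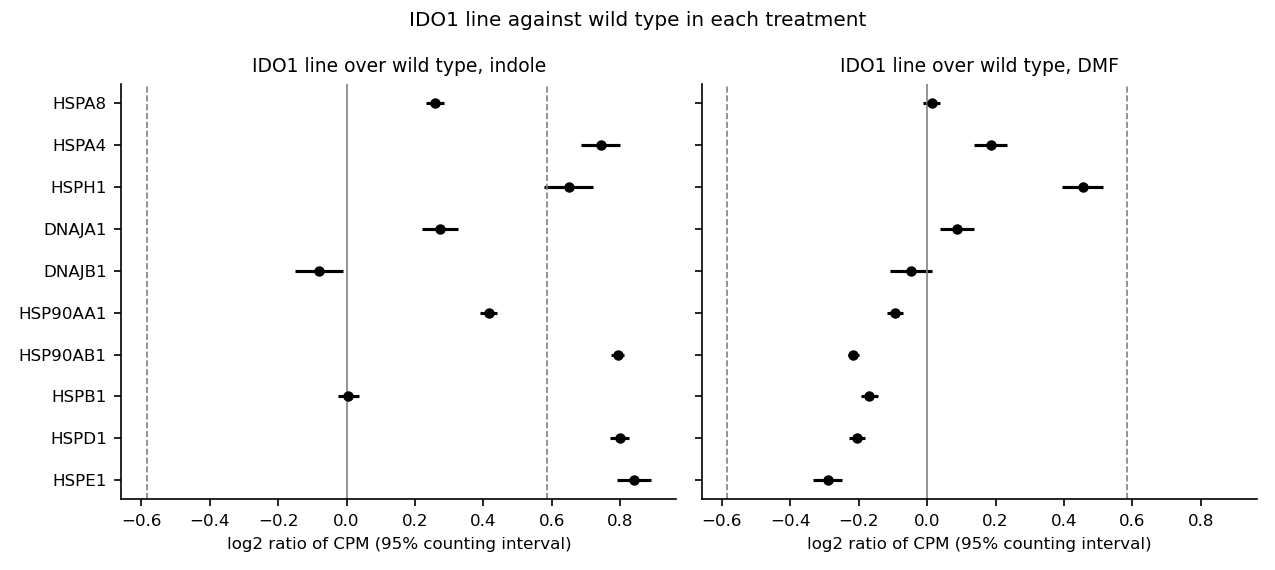
Log2 ratio of CPM in the IDO1 line over wild type (horizontal axis) for the 10 heat shock genes, in indole (left) and in DMF (right), with 95% exact counting intervals; dashed lines mark 1.5-fold. HSPH1 and HSPA4 lie above 0 in both panels, and HSPD1, HSPE1 and HSP90AB1 lie above the upper dashed line in indole and below 0 in DMF.

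Additive fits over all 4 libraries tested for an indole effect shared by the lines and a line effect shared by the treatments. Since no label tells whether each library is its own culture, the p-values reflect no more than the spread among these libraries. With edgeR's quasi-likelihood test and Benjamini-Hochberg adjustment, 0 of 13122 genes passed 0.05 for indole, with 448 at an unadjusted p under 0.05. DESeq2 also gave 0, with 127 at an unadjusted p under 0.05. None of the 10 heat shock genes had an unadjusted p under 0.05 for indole with either tool, against 3.41% of all genes by edgeR. For HSPD1 the log2 fold change was -0.29 (SE 0.293, unadjusted p 0.336 by edgeR).

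For the line, 322 of 13122 genes (2.45%) passed by edgeR, and 0 of the 10 heat shock genes did. An unadjusted p under 0.05 was given to 1 of the 10, against 9.99% of all genes. That gene was HSPH1, with a log2 fold change of 0.54 (SE 0.232, edgeR unadjusted p 0.0263, adjusted p 0.378), and its level was higher in both IDO1 line libraries. HSPA4 had 0.46 (SE 0.247, edgeR adjusted p 0.578). DESeq2 passed 88 genes, 0 of the 10 among them, and gave 1 of the 10, HSPH1, an unadjusted p under 0.05. These fits leave 1 residual degree of freedom, which holds the difference between the indole responses.

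The other genes of heat shock and folding came from 7 lists. Of the HSF1-inducible list, 13 of 15 genes were analysed and 8 had enough reads to be compared. In wild type 5 of these 8 were above 0 with indole, against 46.2% of all genes. On the log2 scale used 0 were 1.5-fold apart, against 7.09% of all genes higher and 9.72% lower. The median log2 ratio was 0.17, or 0.34 with library totals and 0.27 with the trend on abundance removed. HSPA1B, the inducible HSP70, had 176 and 155 CPM in the IDO1 line with indole and with DMF, and 136 and 118 CPM in wild type with indole and with DMF, and was 1.15-fold higher with indole in wild type (1.09 to 1.21). Its near-identical neighbour HSPA1A had at most 50 reads in a library, so reads of the pair are uncertain. HSPA6, the strictly inducible HSP70, had at most 1 read in every library. BAG3, an HSP70 co-factor of aggregate clearance, was 1.20-fold lower with indole in wild type (1.17 to 1.24), and DNAJB4, a J-domain protein, had a log2 ratio of 0.57.

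The regulators HSF1 and HSF2 differed. HSF1 had 150 CPM in both IDO1 line libraries, and 166 and 169 CPM in wild type with indole and with DMF, a ratio of 0.984 with indole in wild type (0.938 to 1.03). HSF2, a related factor, had 19.7 and 16.6 CPM in the IDO1 line with indole and with DMF, and 11.5 and 17.1 CPM in wild type with indole and with DMF. It was 1.49-fold lower with indole in wild type (1.25 to 1.76) and 1.19-fold higher with indole in the IDO1 line (1.03 to 1.37).

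Among HSP90 co-chaperones, 8 of 10 were below 0 with indole in wild type, against 53.8% of all genes. Of these 10, 3 were at least 1.5-fold lower and 1 at least 1.5-fold higher, against 9.72% and 7.09% of all genes. The median of the list was -0.41 (-0.24 with library totals). The peptidyl-prolyl isomerases FKBP5 and PPID, which dock on HSP90, were 1.70-fold (1.57 to 1.85) and 1.68-fold (1.54 to 1.83) lower, and SUGT1, an adaptor of HSP90, was 1.86-fold higher (1.54 to 2.26). The median in the IDO1 line was 0.04, with 0 of 10 genes 1.5-fold apart, against 0.434% of all genes higher and 0.282% lower. Of 10 HSP70 partners compared, 6 were below 0 in wild type, against 53.8% of all genes, with a median of -0.21 that became -0.04 with library totals. HSPA14, an HSP70 relative of the ribosome, was 1.82-fold lower with indole in wild type (1.54 to 2.15) and 1.64-fold higher with indole in the IDO1 line (1.44 to 1.86).

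Among 10 genes of mitochondrial protein quality control, 9 were below 0 with indole in wild type, against 53.8% of all genes and 68.9% of those with a mean of at least 100 CPM. At least 1.5-fold lower were 2 of the 10, against 9.72% of all genes and 16.7% of the abundant ones. Several of the 10 were below 100 CPM in every library, so the abundant genes are not a matched set for this list. The median of the list was -0.32, or -0.15 with library totals. TRAP1, the mitochondrial HSP90, was 1.87-fold lower (1.80 to 1.93), and CLPP, a matrix protease, 1.54-fold lower (1.42 to 1.66). CLPX, the unfoldase that feeds CLPP, had a ratio of 1.06 (0.955 to 1.17). The median in the IDO1 line was 0.09, and TRAP1 was 1.03-fold lower with indole (1.00 to 1.06).

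The lists nearest in kind are the cytosolic chaperonin TRiC and the ER chaperones. All 8 TRiC subunits were below 0 with indole in wild type under TMM and library totals, their median being -0.54 and -0.37. Under TMM 53.8% of all genes and 68.9% of those with a mean of at least 100 CPM were below 0, and with totals 62.5% of all genes were above 0. In the IDO1 line 7 of 8 subunits were above 0, against 48.8% of all genes, with a median of 0.12. With the trend on abundance removed, 7 of 8 were below 0 in wild type, while 50.2% of all genes were above 0. CCT5, a TRiC subunit, was 1.71-fold lower with indole in wild type (1.67 to 1.76). Of 14 ER chaperones, 8 were above 0 in wild type, against 46.2% of all genes, and 2 at least 1.5-fold higher, against 7.09%, with a median of 0.10. They were DNAJB9, an ER J-domain protein, 1.98-fold (1.62 to 2.42), and DNAJC3, another, 1.56-fold (1.41 to 1.73). With library totals 12 of 14 ER genes were above 0 in wild type, against 62.5% of all genes, with a median of 0.27 beside 0.14 over all genes.

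**Figure D5:**
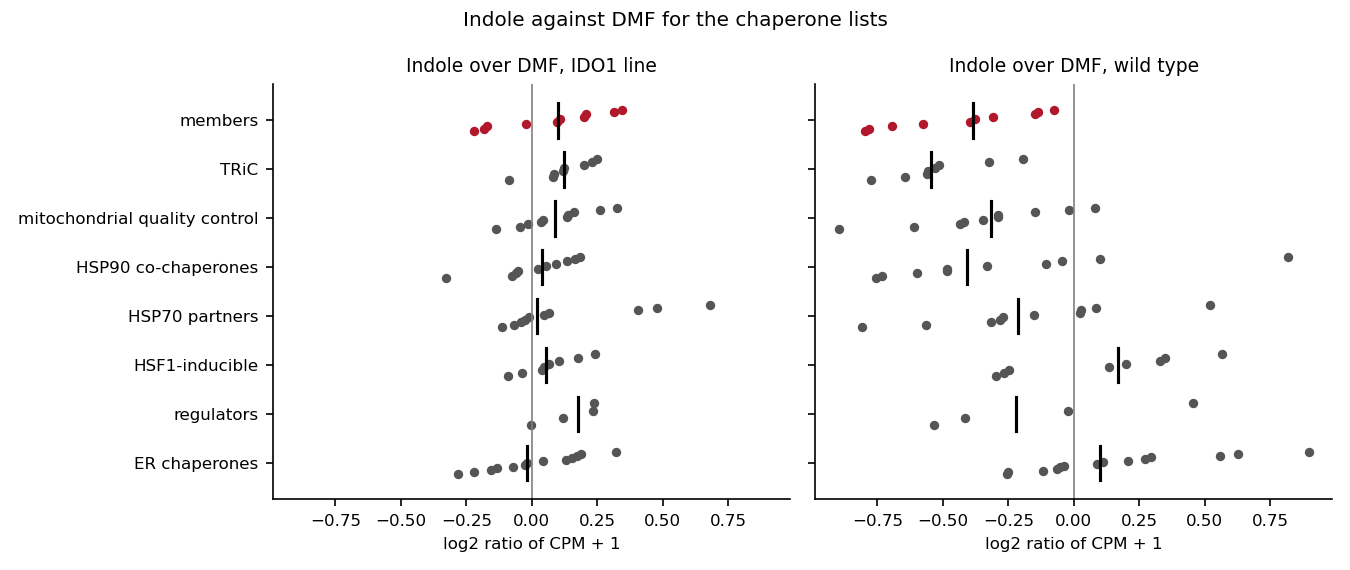
Log2 ratio of CPM + 1 with indole over DMF (horizontal axis) for the compared genes of 8 chaperone lists in the IDO1 line (left) and in wild type (right), 1 point per gene, with a bar at each list's median. In wild type the heat shock genes and TRiC have medians of -0.39 and -0.54 and the ER chaperones 0.10, and in the IDO1 line all medians lie between -0.02 and 0.18.

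A pair of within-library proportions, chosen after the values were seen, set a cytosolic chaperone against its ER relative and are free of scaling. HSPA5, the ER HSP70 also called BiP, had 0.618 reads per read of HSPA8 in the IDO1 line with indole (0.606 to 0.631) and 0.694 with DMF (0.682 to 0.708). In wild type it had 1.20 with indole (1.18 to 1.22) and 0.737 with DMF (0.723 to 0.751). HSP90B1, the ER HSP90, had 0.130 reads per read of HSP90AB1 in the IDO1 line with indole (0.127 to 0.134) and 0.142 with DMF (0.139 to 0.146). In wild type it had 0.251 with indole (0.246 to 0.258) and 0.127 with DMF (0.124 to 0.130). Both proportions were higher in wild type with indole than in any of the other 3 libraries, and the intervals do not overlap.

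The mean profile of the 10 genes over the 4 libraries, on the log2 scale and centred, was 0.14 and 0.08 in the IDO1 line with indole and with DMF, and -0.32 and 0.10 in wild type with indole and with DMF. Among 7888 genes with at least 10 CPM in every library, the nearest in root mean square distance outside the 10 were CRYZL1 (0.00682), SF3B3 (0.00899), SGTA (0.0118), IFRD2 (0.0124) and NUDT21 (0.0132). The distances of the 10 genes from their own mean ranged from 0.0696 for HSP90AA1 to 0.194 for DNAJB1, so the mean describes none of them as closely. The likeness rests on 4 libraries.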

How the data were processed

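Messenger RNA of 4 HCT116 samples was measured by amplicon sequencing with an AmpliSeq whole-transcriptome kit, per the labels' protocols. The deposited values are raw counts of reads per amplicon target, 1 count column per file, per the file headers. Per the submitters' processing notes reads were placed on hg19; the aligner and counter are not given in the sources used here. In its design text the series has 2 replicates of each. Whether a column pools them is not stated, so each group was 1 library.

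Counts were scaled by TMM (edgeR 4.0.16) over all 4 libraries. Log2 ratios used CPM + 1 for genes with at least 10 CPM in 1 of the 2 libraries, and 1.5-fold on that scale was the call. Folds are ratios without pseudocount. Their 95% intervals come from the exact (Clopper-Pearson) interval of a gene's reads split between both libraries. They cover counting error only, since amplified reads that carry no molecular identifier are not independent molecules. The additive fits (line and treatment) used edgeR's quasi-likelihood test after filterByExpr, adjusted over all genes. The SE was back-calculated from the F statistic. They were tested on simulated data. DESeq2 1.42.0 was an alternative.

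The members and lists were chosen with earlier results of these data known. Beside the 10 genes, the rule for named genes took IDO1, HSF1, HSF2, the 2 highest and the 2 lowest genes of each list in each comparison, and the 5 nearest profiles. HSPA1A, HSPA6, HSPA5 and the read proportions were chosen after their values were seen, and 2 listed genes were not analysed here. The comparison with genes of at least 100 CPM was also added after the values were seen. Alternatives were library totals, median-of-ratios factors, totals without the 10 most abundant genes, pseudocounts of 0.25 and 5, minimums of 1 and 50 CPM, removal of a lowess trend on abundance, and 2-fold calls.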

Additional observations from a re-analysis of the deposited data

Results flagged for a closer look

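For 4 of the 10 heat shock genes, indole was lower than DMF in wild type and higher than DMF in the IDO1 line, with counting intervals clear of a ratio of 1 in both lines under each of the 4 scalings tried. Without the rule on intervals, 28.1% of all genes had these directions under TMM, 20.3% with library totals and 27.8% with the trend on abundance removed. The rule on intervals was not applied to all genes. The difference of the log2 ratios, IDO1 line minus wild type, was 1.13 for HSPE1, 1.01 for HSP90AB1, 1.00 for HSPD1 and 0.51 for HSP90AA1. With the trend on abundance removed, a setting that gives no counting interval, it was 0.90 for HSPE1, 0.70 for HSP90AB1, 0.72 for HSPD1 and 0.22 for HSP90AA1, whose log2 ratio in wild type was then -0.02. Each line contributes 1 library per treatment, so the difference was not tested.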

How the results depend on the processing

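No paired analysis was possible because each group is 1 library, so the groups share no set of replicate numbers. The additive fits do compare indole with DMF within the lines. No library could be left out of those fits, which would then have 0 residual degrees of freedom. The median log2 ratio of the 10 genes with indole in wild type was -0.21 with library totals, -0.21 with totals without the 10 most abundant genes and -0.16 with the abundance trend removed. The same settings gave 0.0268, 0.00231 and 0.0216 between the lines in DMF, 0.45, 0.44 and 0.39 between the lines in indole, and 0.20, 0.21 and 0.13 for the difference of the indole responses. The counts of genes 1.5-fold apart depended on the minimum level. They were 2201 and 724 at 1 and 50 CPM for indole in wild type, 252 and 17 for indole in the IDO1 line, 644 and 69 for the lines in DMF, and 2941 and 912 for the lines in indole, and a pseudocount of 5 gave 36 for indole in the IDO1 line. With 2-fold calls they were 252, 7, 38 and 395 in the same order of comparisons, and 0 of the 10 heat shock genes were called lower with indole in wild type or higher in the IDO1 line in indole. With the abundance trend removed, 0 of the 10 were called lower with indole in wild type, against 695 of 8679 genes. In the same setting 3 of the 10 were called higher in the IDO1 line in indole, against 866 of 8765 genes. The cause was not tested. With wild type in DMF in place of wild type in indole, an alternative chosen after seeing the data, 193 genes and 0 of the 10 were called for the IDO1 line, the median was 0.10, and 3 listed genes reversed, FKBP5 to -0.10, PPID to -0.0167 and TRAP1 to -0.24. The additive fit for indole passed 6 genes with library totals, 10 without a filter and 5 with at least 10 CPM in 2 libraries. In that fit HSPA8 turned to 0.0606 and 0.00963 with totals and with that minimum, and HSP90AA1 to 0.0320 with totals. The fit for the line passed 74 genes with that minimum and 88 with DESeq2.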
